A study of Cervus nippon with 4 samples.

Results

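The 200 genes described here dipped in the testis of 5-year-old Sika Deer. They were chosen by their levels at 3, 5 and 10 years, so the dip itself is a description and not a finding. A gene was eligible when it reached at least 5 FPKM in Tst_2 and in Tst_4 and these levels were within 2-fold of each other, and it was taken when its level in Tst_3 was at most 50% of each. Of 18408 eligible genes, 540 met the rule, which is 2.93%, and the 200 with the highest smaller value of Tst_2 and Tst_4 were kept. The files listed 629520 different gene identifiers in all. The level in Tst_1 was not used in the choice, and it was the only measurement of these genes that was free of it.

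Messenger RNA was sequenced from whole testis of Sika Deer of the Shuangyang breed at 4 ages. Tst_1 was the juvenile group at 1 year, Tst_2 the adolescence group at 3 years, Tst_3 the adult group at 5 years and Tst_4 the aged group at 10 years. Each age had 1 library, made from the pooled testis RNA of 3 animals. The labels name no treatment and no genotype, so the groups differed by age and by the animals pooled. The values were FPKM, fragments scaled to gene length and to all mapped fragments of the library, given to 2 decimals. With 1 library per age there was no replicate error and no test, and age could not be told apart from the animals or the library.

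The testis holds germ cells that pass from spermatogonia through meiotic spermatocytes to spermatids, the Sertoli cells that nurse them, and the Leydig cells that make testosterone between the tubules. Many transcripts of meiotic and later germ cells are absent from the testis before puberty and abundant after it. Sika Deer are seasonal breeders, whose testes grow before the rut and shrink after it. In a bulk library, fewer cells of a type and less RNA per cell cannot be told apart. No gene symbol accompanies an identifier in the deposited lists, so no function, pathway or cell type could be assigned to a member, and the labelled tissue could not be checked against marker genes. Each identifier has a c number followed by a g number, and members are named by it.

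The highest member was c676270_g8, which was not listed in Tst_1 and was at 329.12 FPKM in Tst_2, with 103.63 FPKM in Tst_3 and 248.41 FPKM in Tst_4. The next was c666265_g6, at 6.19 FPKM in Tst_1, 248.85 in Tst_2, with 88.41 in Tst_3 and 216.08 in Tst_4. Both were somewhat lower at 10 than at 3 years, and at 5 years they kept 41.7% and 40.9% of their 10-year level. The third, c659948_g2, stood at 0.10 FPKM in Tst_1, 178.76 in Tst_2, with 83.95 in Tst_3 and 181.38 in Tst_4. The fourth, c558494_g1, was not listed in Tst_1 and had 156.73 FPKM in Tst_2, with 43.53 in Tst_3 and 104.27 in Tst_4. The fifth, c336635_g1, was also not listed in Tst_1 and had 102.14 FPKM in Tst_2, with 30.94 in Tst_3 and 145.60 in Tst_4. These 5 genes remained well expressed at 5 years, and 3 of them were not listed in the juvenile library.

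**Figure D1:**
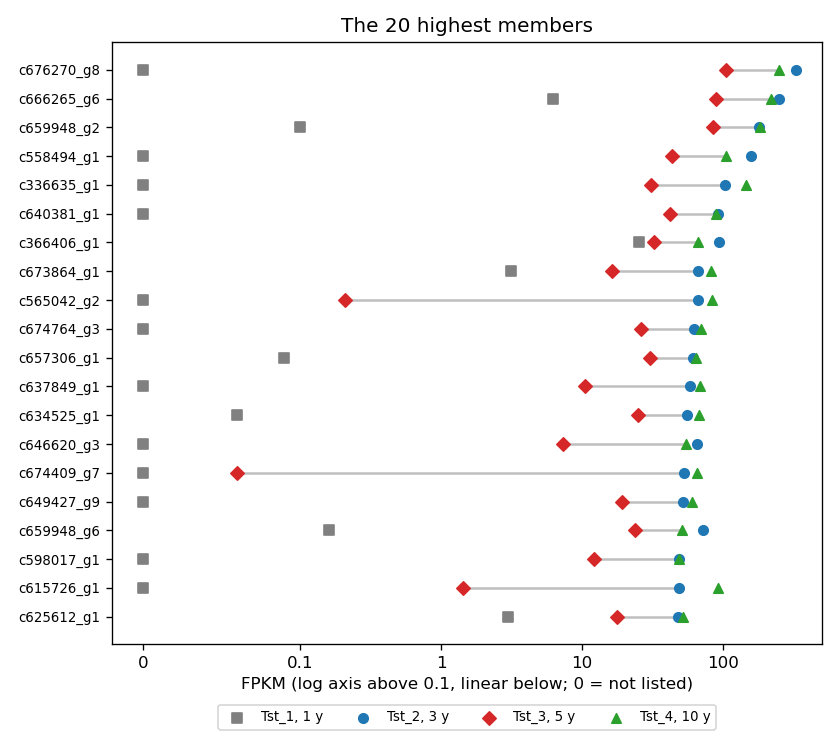
Level in FPKM of the 20 highest members in each of the 4 libraries, on an axis that is logarithmic above 0.1 and linear below it, where 0 means not listed. The grey line joins Tst_3 to the smaller of Tst_2 and Tst_4, and most juvenile values lie far to the left of the Tst_3 values.

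Over the 200 members the median level was 0 FPKM in Tst_1, 19.4 in Tst_2, with 5.74 in Tst_3 and 18.9 in Tst_4. The range was 0 to 65.83 FPKM in Tst_1, 10.83 to 329.12 in Tst_2, 0 to 103.63 in Tst_3 and 10.93 to 248.41 in Tst_4. The members together held 0.064% of the summed FPKM of Tst_1, 0.678% of that of Tst_2, 0.218% of that of Tst_3 and 0.677% of that of Tst_4. They were a small part of the testis transcriptome at every age, and the rule itself held their 3-year and 10-year levels near each other. Among the members 86, or 43.0%, were higher in Tst_4 than in Tst_2 and 108, or 54.0%, were within 1.2-fold, against 47.0% and 57.6% of the 10126 eligible genes at or above the lowest member.

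**Figure D2:**
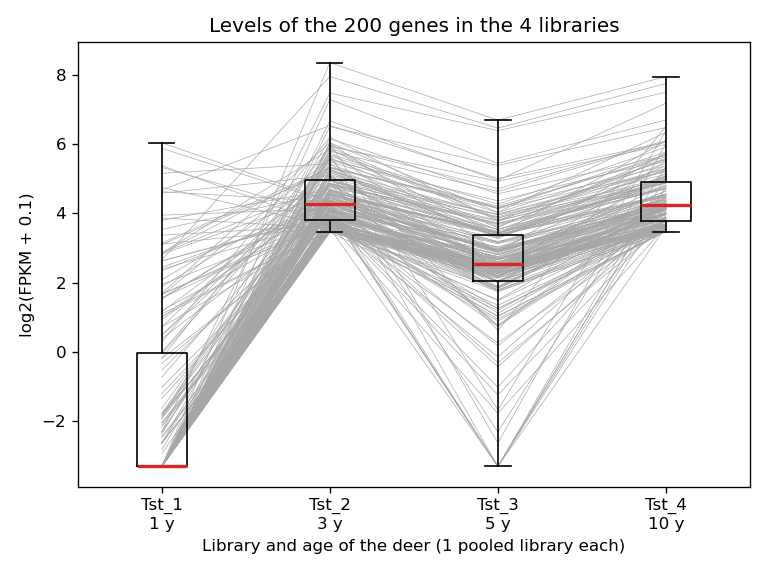
Level of each of the 200 genes as log2(FPKM + 0.1) in the 4 libraries, with 1 grey line per gene. Boxes span the quartiles, whiskers the whole range and the red line is the median, which is at the bottom of the scale in Tst_1 because 115 genes were not listed there.

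The members differed widely in the size of the dip. The median member kept 37.7% of the smaller of Tst_2 and Tst_4, and the median log2 ratio of that smaller value over Tst_3 was 1.40 after 0.1 FPKM was added, with quartiles of 1.15 and 1.96. The dip was between 2-fold and 3-fold in 116 members, up to 4-fold in 38 and up to 10-fold in 26. It was over 10-fold in 14 members, and another 6 were not listed in Tst_3. Most members were reduced and not lost at 5 years.

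By the ratio after 0.1 FPKM was added, the deepest dip belonged to c420450_g1, which was listed neither in Tst_1 nor in Tst_3 and was at 36.85 FPKM in Tst_2 and 33.88 in Tst_4. Next came c674409_g7, not listed in Tst_1 and at 52.96 FPKM in Tst_2, with 0.06 in Tst_3 and 65.09 in Tst_4. A further gene, c565042_g2, was not listed in Tst_1 and was at 65.60 FPKM in Tst_2, with 0.21 in Tst_3 and 83.57 in Tst_4. These were present at 3 and 10 years at levels above those of most members, and nearly absent from the libraries of 1 and 5 years. The gene c670812_g1 had the same form, not listed in Tst_1 and at 33.81 FPKM in Tst_2, with 0.10 in Tst_3 and 41.04 in Tst_4. In contrast c15122_g1 was at 4.95 FPKM in Tst_1, 19.30 in Tst_2 and 27.28 in Tst_4, and was not listed in Tst_3 alone. Of the 15 members under 1 FPKM in Tst_3, 14 were also under 1 FPKM in Tst_1, as were 75.5% of all members, and c15122_g1 was the exception.

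**Figure D3:**
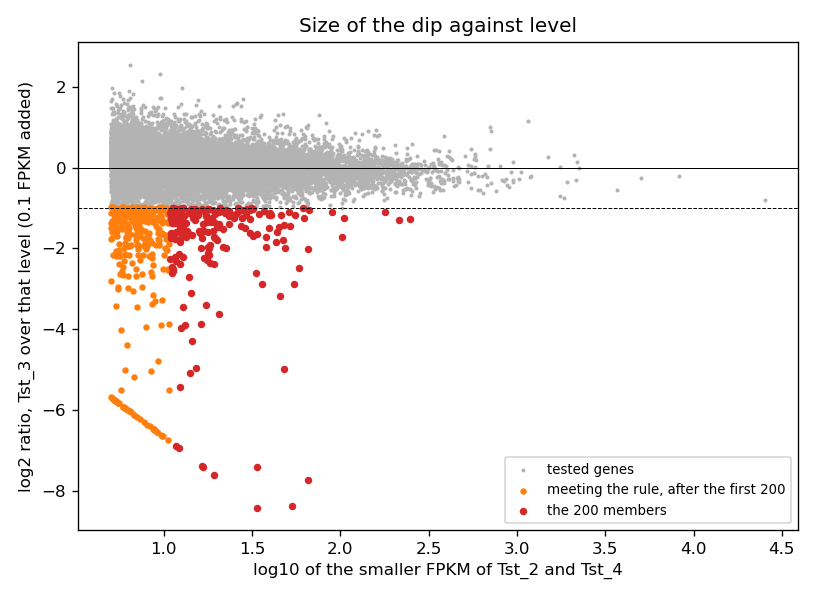
The log2 ratio of Tst_3 over the smaller of Tst_2 and Tst_4, after 0.1 FPKM was added, against log10 of that smaller value, with 1 point for each of the 18408 eligible genes. The dashed line marks the 2-fold limit, the 200 members are red, the other 340 genes that met the rule are orange, and the orange diagonal at the lower left holds genes not listed in Tst_3.

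The limits of the choice cut through a continuous range. The last members by level were c628718_g5, at 10.86 FPKM in Tst_2, with 2.18 in Tst_3 and 14.49 in Tst_4, and c1075223_g1, at 10.83, 4.90 and 16.09 FPKM. Just outside were c529856_g1, at 11.47 FPKM in Tst_2, with 0.14 in Tst_3 and 10.77 in Tst_4, and c1056632_g1, at 10.75, 2.81 and 11.19 FPKM. On the limit of the dip, the members nearest to it were c639615_g4, whose Tst_3 level was 49.9% of the smaller of the pair, and c660405_g1, at 49.8%. Just past it, c679282_g1 kept 50.2% and c650444_g1 kept 50.3%, the latter with 107.24 FPKM in Tst_2, with 51.17 in Tst_3 and 101.77 in Tst_4. Members and non-members near a limit therefore had nearly the same values.

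The same rule was then applied with another library in the low place, in the same 3 libraries. It was met by 457 of 18600 genes with Tst_2 low, or 2.46%, and by 478 of 18964 genes with Tst_4 low, or 2.52%. On the deposited scale the 2.93% of Tst_3 was close to both, and genes that dipped this far were found in each library. The share fell with level in each case. With Tst_3 low it was 4.23% from 5 to 10 FPKM, 2.82% from 10 to 20, 1.58% from 20 to 50 and 0.847% from 50 upwards. With Tst_2 low the shares were 3.70%, 2.04%, 1.31% and 0.78%, and with Tst_4 low 3.85%, 2.12%, 1.197% and 0.585%. Tst_3 had the highest share in each of the 4 level bands, by a margin for which no error can be given. The paper reports fewer clean messenger RNA reads for Tst_3 than for Tst_2 or Tst_4. Whether depth bears on these shares was not tested. Genes at least 2-fold above both other libraries numbered 49 for Tst_3, 115 for Tst_2 and 73 for Tst_4 on the deposited scale.

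**Figure D4:**
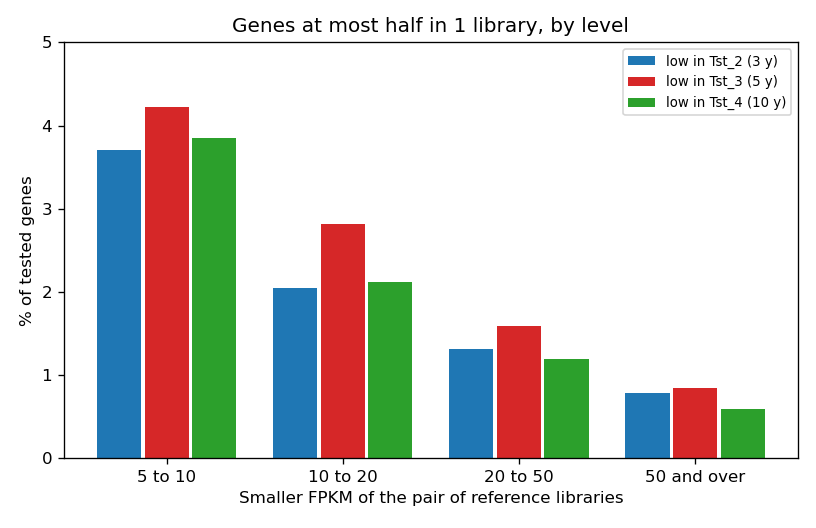
Percentage of eligible genes that were at most 50% in 1 library of both others, for each of Tst_2, Tst_3 and Tst_4 as the low library, by the smaller FPKM of the other pair. All 3 shares fall from the band of 5 to 10 FPKM to the band from 50 FPKM upwards, and the red bars of Tst_3 are the highest in each band.

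These counts depended on how the libraries were scaled. The 10126 eligible genes at or above the lowest member had a median log2 ratio of Tst_3 over the mean of Tst_2 and Tst_4 of -0.07 on the deposited scale, and the members had -1.55. Scaling by trimmed-mean factors or by median-of-ratios factors shifted the median of all these genes by -0.24. The members moved with them, to -1.79. With trimmed-mean factors 1544 genes met the rule with Tst_3 low, 841 with Tst_2 low and 797 with Tst_4 low. With median-of-ratios factors the numbers were 1012, 428 and 370. Both sets of factors raised Tst_2 and Tst_4, and the minimum of 5 FPKM was applied after scaling. Genes under 5 FPKM on the deposited scale could thus enter, so these counts do not separate the scaling from a lower minimum. The counts of genes at least 2-fold above both other libraries became 62 for Tst_3, 303 for Tst_2 and 206 for Tst_4 with trimmed-mean factors, and 23, 154 and 148 with median-of-ratios factors. Under both scalings the low counts were therefore highest and the high counts lowest for Tst_3, by wider margins than on the deposited scale. A lower minimum was not tested apart from the scaling. Both lower Tst_3 against Tst_2 and Tst_4, so members stay within the limit of the dip by construction.

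The juvenile library gave the level that the choice did not use. Of the 200 members 115, or 57.5%, were not listed in Tst_1, against 11.0% of the 10126 eligible genes at the members' level. A further 27 members were listed under 0.3 FPKM, 9 from 0.3 to 1 FPKM, 23 from 1 to 5 FPKM and 26 at 5 FPKM or more. In all 49 members, or 24.5%, reached 1 FPKM, against 75.4% of the eligible genes. The level in Tst_1 was at most 50% of the smaller of Tst_2 and Tst_4 in 186 members, or 93.0%, against 59.3%. The members were low in the juvenile testis far more often than other genes of their level. No test was possible for this difference, since each age was 1 library.

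**Figure D5:**
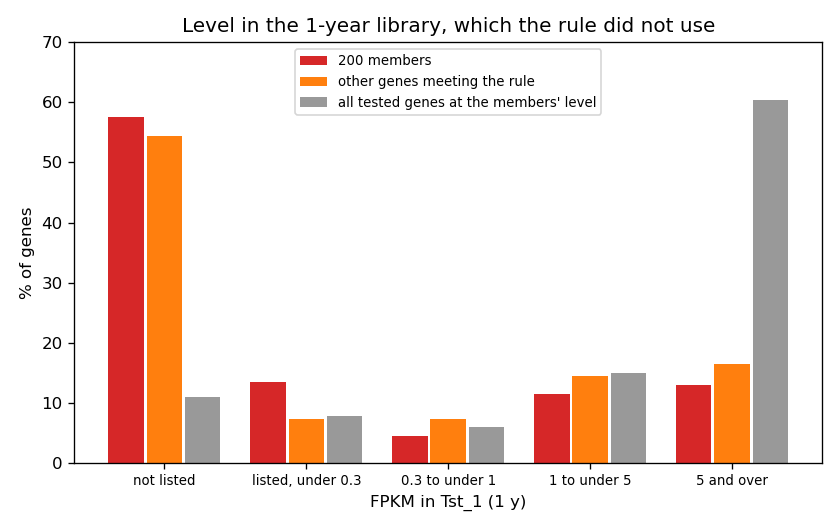
Percentage of genes in 5 classes of FPKM in Tst_1, for the 200 members, the other 340 genes that met the rule and the 10126 eligible genes at the members' level. The red bar is highest at not listed, at 57.5%, where the grey bar is at 11.0%, and the grey bar is highest at 5 FPKM and over.

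The same share was compared with genes that dipped in another library. Of the first 200 genes with Tst_2 low, 24.5% were not listed in Tst_1, and of the first 200 with Tst_4 low, 32.5%. Their shares with Tst_1 at most 50% of the smaller of their own reference pair were 73.0% and 64.0%. All 3 lists were above the 11.0% of genes eligible on Tst_2 and Tst_4, and the list with Tst_3 low had the highest share. Only the list with Tst_3 low was drawn from those eligible genes, and no such share was computed for the sets behind the other lists. These 3 lists were each chosen from the same libraries, so they are set side by side without a test. Of the 340 genes that met the rule below the level of the members, 54.4% were not listed in Tst_1.

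The share not listed in Tst_1 did not follow the level of the members. It was 62.1% of the 124 members under 20 FPKM, 47.5% of the 59 from 20 to 50 FPKM and 58.8% of the 17 at 50 FPKM or more. For eligible genes of the same bands it was 11.6%, 10.5% and 10.5%. By size of the dip, 64 of the 116 members that dipped between 2-fold and 3-fold were not listed in Tst_1. The numbers were 19 of 38 for a dip up to 4-fold and 19 of 26 up to 10-fold. They were 13 of the 20 that dipped over 10-fold or were not listed in Tst_3. Genes with a modest dip and genes nearly lost at 5 years were thus both often absent from the juvenile list.

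Compared with Tst_3 itself, Tst_1 was lower in 177 members, or 88.5%, against 79.1% of the eligible genes. It was higher in 18 members, or 9.0%, against 20.9%, and 5 members were listed in neither library. A juvenile level below that of 5 years was thus common among all eligible genes. The rule held Tst_3 low in the members but not in the eligible genes, so the shares against Tst_3 are not free of the choice. The 115 members not listed in Tst_1 were lower there wherever Tst_3 was listed. Of the 18 members higher in Tst_1 than in Tst_3, 9 exceeded the smaller of Tst_2 and Tst_4, and 6 of these exceeded both. In 3 members, or 1.5%, Tst_1 was at least 2-fold above both, against 6.99% of the eligible genes.

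The member highest in Tst_1 was c667820_g1, at 65.83 FPKM there, 20.42 in Tst_2, with 7.64 in Tst_3 and 33.43 in Tst_4. The gene c1011372_g1 had 58.83 FPKM in Tst_1, 19.93 in Tst_2, with 4.01 in Tst_3 and 16.16 in Tst_4. The gene c224805_g1 had 41.58 FPKM in Tst_1, 12.43 in Tst_2, with 4.66 in Tst_3 and 12.16 in Tst_4. Unlike most members, these genes were highest in the juvenile testis and low at 5 years. The gene c626678_g1 had 40.14 FPKM in Tst_1, 15.11 in Tst_2, with 1.92 in Tst_3 and 11.33 in Tst_4, the same form. The gene c683935_g4 differed, at 35.64 FPKM in Tst_1, 43.15 in Tst_2, with 11.94 in Tst_3 and 52.60 in Tst_4, so that it was high at every age but 5 years. At the same time 10 of the 26 members at 5 FPKM or more in Tst_1 were still lower there than in Tst_3.

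The depth behind these values was examined from the values themselves, a step chosen after the levels had been seen. In each list the most frequent values above 1.38 FPKM formed a ladder of discrete steps, each read here as the value of 1 fragment on a gene of 1 short length. For the shortest length the step was 3.13 FPKM in Tst_1, 3.06 in Tst_2, with 4.99 in Tst_3 and 5.06 in Tst_4. Over the 28 lengths read, 1 fragment weighed from 1.54 to 1.63 times as much in Tst_3 as in Tst_2, and about the same in Tst_3 as in Tst_4. Of the members 22, or 11.0%, had values in every library that were whole multiples of the steps of 1 such length, within 0.005 FPKM per fragment plus 0.005 FPKM for rounding. The same held for 1.07% of the 10126 eligible genes, 13.5% of the first 200 genes with Tst_2 low and 15.0% of those with Tst_4 low. Genes read to few fragments were more frequent in all 3 lists than among the eligible genes. A gene not listed in a library met the condition there without a match, and more than 40 fragments were not searched. Members were more often not listed in Tst_1 than the eligible genes. They were also lower, with 124 of 200 under 20 FPKM against 4394 of 10126. The difference can thus be partly built into the reading, and no share at equal level was computed.

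For 21 of these 22 members 1 length was found, and for c15122_g1 2 lengths were. The 21 members rested on 4 to 28 fragments in Tst_2, 0 to 5 in Tst_3 and 3 to 16 in Tst_4. In Tst_3 there were 0 fragments in 3 of them, 1 in 8, 2 in 7 and 3 or more in 3. The gene with the highest rank was c670426_g12, at 54.99 FPKM or 18 fragments in Tst_2, 4.99 FPKM or 1 fragment in Tst_3 and 45.58 FPKM or 9 fragments in Tst_4. The member c303093_g1 had 4 fragments in Tst_2, with 0 in Tst_3 and 4 in Tst_4, which were 11.80, 0 and 19.48 FPKM. The member c1011372_g1, named above for its juvenile level, had 23 fragments in Tst_1, 8 in Tst_2, with 1 in Tst_3 and 4 in Tst_4.

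For each of the 21 an exact 95% Poisson interval was set on the fragments, which covers counting error only. The genes were chosen by these same values, so the intervals do not keep their stated level. Overlap of the intervals is given as a description and is not a test of the dip. In 18 of them the interval of Tst_3, on the FPKM scale, overlapped those of both Tst_2 and Tst_4. For c670426_g12, c644667_g5 and c607603_g1 it overlapped that of Tst_4 and lay below that of Tst_2. The size of the dip was therefore poorly determined in these genes, and a dip to 0 could not be told from a smaller one. Among the 6 members not listed in Tst_3, 4 were resolved to whole fragments, namely c15122_g1, c285402_g1, c46001_g1 and c303093_g1. Read as 8, 0 and 7 fragments in Tst_2, Tst_3 and Tst_4, c15122_g1 had a Tst_3 interval that overlapped both others. Read as 12, 0 and 11 fragments, its Tst_3 interval lay below both. A gene that is not resolved in this way may be longer or may hold fragments shared between genes, so nothing follows for the depth of the other 178 members.

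Without the 22 genes, 104 of 178 members, or 58.4%, were not listed in Tst_1, and 169, or 94.9%, were at most 50% there. The resolved genes themselves were not listed in Tst_1 in 11 of 22 cases. For c670426_g12 the floor of 3 fragments was worth 9.39 FPKM in Tst_1, which lies below its levels in Tst_2 and Tst_4 and above that in Tst_3.

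The identifiers gave a further feature that the rule did not use, but being alone in a c number may still be related to passing such a rule. The 200 members fell into 194 c numbers, and 99 of them, or 49.5%, were the only gene of their c number. The share was 20.9% among the 10126 eligible genes, 30.5% for the first 200 genes with Tst_2 low and 47.0% for those with Tst_4 low. It was thus above that of the eligible genes in all 3 lists. Members that were alone in their c number were not listed in Tst_1 in 62.6% of cases and those that shared it in 52.5%, against 26.0% and 7.01% of eligible genes of the same kinds. The low juvenile level appeared in members of both kinds.

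In 6 c numbers there were 2 members each. The highest pair was c659948_g2, given above, and c659948_g6, at 0.16 FPKM in Tst_1, 71.41 in Tst_2, with 23.59 in Tst_3 and 51.06 in Tst_4. Another was c674409_g7, given above, and c674409_g3, at 0.18 FPKM in Tst_1, 15.25 in Tst_2, with 0.64 in Tst_3 and 14.44 in Tst_4. In c646620 the pair was c646620_g3, at 65.38 FPKM in Tst_2, with 7.28 in Tst_3 and 54.30 in Tst_4, and c646620_g1, at 26.01, 3.60 and 19.35 FPKM. Both genes of each pair dipped by the rule, to 0.113% and 4.43% of the smaller value in c674409, and fragments divided between near-identical sequences would give values that are not independent. Of the 12 genes in such pairs, 9 were not listed in Tst_1 and the other 3 were at most at 0.18 FPKM.

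Most other genes with a member's c number did not dip as far. There were 310 of them in 92 c numbers, of which 85 reached 1 FPKM in both Tst_2 and Tst_4. Among these 85, Tst_3 was at most 50% of both in 15, or 17.6%, and below both in 52, or 61.2%. Over all genes at 1 FPKM or more these shares were 9.31% and 35.7%. Of the 14 that reached 20 FPKM in at least 1 of Tst_2, Tst_3 and Tst_4, 0 were at most 50% of both in Tst_3, and 8 were below both. Members were left out of the 85 and the 14, and any gene that met the rule at 10.83 FPKM or more was a member. Since 12 of the 14 were within 2-fold in Tst_2 and Tst_4, the 0 was fixed for them by the choice.

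Some of these neighbours were much higher than the member beside them. The gene c327949_g1 was not listed in Tst_1 and was at 124.90 FPKM in Tst_2, with 129.74 in Tst_3 and 135.09 in Tst_4. Beside it the member c327949_g2 was at 19.77 FPKM in Tst_2, with 3.50 in Tst_3 and 17.55 in Tst_4, or 9, 1 and 5 fragments. The gene c644667_g2 was at 2.87 FPKM in Tst_1, 119.25 in Tst_2, with 78.13 in Tst_3 and 87.15 in Tst_4, beside the member c644667_g5, at 38.72 FPKM in Tst_2, with 10.61 in Tst_3 and 33.55 in Tst_4. The dip of the member was not shared to the same degree by the higher gene in either c number. At these levels, a higher gene within 2-fold in Tst_2 and Tst_4 that dipped as far would itself have been a member. When FPKM was summed over the 95 c numbers that held other genes, 62 of the sums were at most 50% in Tst_3, each sum including the member itself.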

How the data were processed

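Testis RNA was enriched for poly-A transcripts, made into strand-marked libraries and sequenced on an Illumina instrument. For each library the authors deposited gene identifiers with FPKM values, which they had computed relative to gene length and mapped fragments. The sources used here do not name the assembly, the aligner or the counting program, and the files hold no depth. Lists were assigned to ages from the labels and joined on the identifier, and a missing gene was set to 0. The rule, the comparisons and the members were chosen with earlier results of these data known. Members were named as the 5 highest, the 5 deepest, the 3 highest not listed in Tst_1, the 5 highest in Tst_1, those at the limits and the highest pair with 1 c number. Pairs c646620 and c674409, the genes resolved to few fragments and the neighbours of members were chosen after their values were seen. Ratios used 0.1 FPKM added to each value. Trimmed-mean factors dropped, from either tail, 30% by ratio and 5% by level, and median-of-ratios factors used the 153596 genes listed in all 4 libraries. Fragments were searched over 28 steps and up to 40 fragments per library. Only the choosing rule, the trimmed-mean factors and the reading of fragments from given steps were checked on simulated data. Steps were matched between lists by their order. Of genes at a step in both lists of a pair, 84.4% to 88.2% were at the same step. With no replicates there was no test. Alternatives covered the minimum, the limits of the rule, the scaling, the added value, sums by c number and the genes kept. Planned gene groups and cell type markers were not computed, since the identifiers carry no names. Python 3.11.15, numpy 2.4.6, pandas 2.3.3 and scipy 1.17.1 were used, and figures were drawn with matplotlib 3.10.9.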

Additional observations from a re-analysis of the deposited data

How the results depend on the processing

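The number of genes meeting the rule, 540, was 1818 with a minimum of 2 FPKM, 220 with 10 FPKM and 31413 with no minimum. It was 252 when Tst_3 had to be at least 3-fold below each, 1544 with trimmed-mean factors and 1012 with median-of-ratios factors. With the factors, the minimum of 5 FPKM was applied after scaling. It lay between 419 and 522 under the other 4 settings. The share of members at most 50% in Tst_1, 93.0%, was 84.6% over all 540 genes. Among the first 200 genes chosen anew on each scale, it was 97.5% with trimmed-mean factors and 97.0% with median-of-ratios factors. Both sets of factors lower Tst_1 against Tst_2 and Tst_4, so a rise of this share is partly built in. The median log2 dip, 1.40, was 1.29 with 1 FPKM added, 1.64 with trimmed-mean factors and 1.63 with median-of-ratios factors. The share of members not listed in Tst_1, 57.5%, was 50% for members at 20 FPKM or more and 50.5% for the first 200 genes with median-of-ratios factors, and from 51.0% to 58.4% under 5 further alternatives, all chosen after seeing the data. The share at 1 FPKM or more in Tst_1, 24.5%, stayed between 21.3% and 28.5%. Beyond these effects of the scaling, the cause of these movements was not tested.

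No paired analysis was possible because 1 library stood for an age, and for the same reason no library was left out. The precision of each value is unknown, apart from the 22 members resolved to few fragments. A gene not listed in a library was not detected at its depth, which is not the same as absent.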
